A study of Penicillium oxalicum with 6 samples.

Results

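The 39 genes described here carry a glycosyltransferase (GT) family entry and stand among 11159 features measured by RNA-seq in mycelium of the fungus *Penicillium oxalicum*, in the engineered strain GXUR001 and its parent TE4-10. They were taken from the part at hand of the study's list of differentially expressed genes, 1998 genes whose IDs run from *POX_a* to *POX_d*, where 43 genes carry a GT entry. A pair of genes with an additional auxiliary activity entry, and another pair named by the rule and not analysed here, were left out. The study made that list with a p-value threshold on GXUR001 against TE4-10, so the members were picked for this very contrast and by its values. Their differences between strains are therefore given as a description, counts of calls included, and support nothing, and a member just inside that threshold cannot be set beside a gene just outside it, because the study's p-values were not used. Glycosyltransferase genes that the study did not list, or that lie on the other chromosomes, were not analysed here. The 39 genes fall into 20 families by their first GT entry. Family GT41 alone holds 14 of them, and 21 of the 39, 13 of these in GT41, carry the product name hypothetical protein.

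Glycosyltransferases transfer a sugar from an activated donor, such as UDP-glucose, GDP-mannose or a dolichol-linked sugar, to a growing polysaccharide, protein or lipid. In a filamentous fungus such as *P. oxalicum*, enzymes of this class polymerise the chitin and glucan of the hyphal wall at the plasma membrane, start protein glycans and membrane anchors in the endoplasmic reticulum, and extend mannan in the Golgi apparatus. Families are numbered by sequence similarity (GT2, GT48 and so on), so a family number is an annotation and does not by itself fix the donor, the acceptor or the product.

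The label of wall and glycan synthesis holds by annotation for only some of the members. Chitin synthases, a 1,3-beta-glucan synthase, mannosyltransferases and endoplasmic reticulum glucosyl- and mannosyltransferases are named as such. GT41 is the family of O-GlcNAc transferase, which puts a single sugar on nuclear and cytosolic proteins in animals and plants and carries tetratricopeptide repeats that many unrelated proteins share. The only GT41 member here with another product name, *POX_b02296*, is annotated as clathrin heavy chain, the coat protein of endocytic vesicles. The GT41 members are accordingly described as a family and not as wall genes.

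GXUR001 is TE4-10 with the transcription repressor gene *PoxCxrC* deleted and the activator gene *PoxAmyR* overexpressed. TE4-10, the parental strain and reference, carries the genotype label WT, yet it descends by rounds of chemical and gamma-ray mutagenesis from A2-13, a mutant in which the glucoamylase gene *PoxGA15A* is overexpressed from a cellulose-inducible promoter in a strain lacking *PoxKu70*. Both strains share that background, and the effects of the deletion and of the overexpression cannot be told apart, since no strain with 1 of the changes was sequenced in the libraries used here. Mycelium was grown in glucose and harvested 24 h after transfer to induction medium, whose carbon source is raw starch by the labels and wheat bran plus Avicel (microcrystalline cellulose) by the paper. The values below come from all 3 GXUR001 libraries and from TE4-10 libraries 1 and 3, while library 2 of TE4-10 was not analysed here.

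Values are FPKM as deposited, mapped fragments scaled to the length of the gene and to the depth of the library, and are listed in the order of the replicates. Log2 fold changes (GXUR001 over TE4-10) are on the log2(rescaled FPKM + 1) scale, with limma's moderated standard error (SE). Before that step, a factor per library (the median over genes of its FPKM relative to the geometric mean over libraries) was divided out. The pseudocount of 1 understates the change of genes at a few FPKM. Rescaling moved the median log2 fold change of the 9636 genes tested to 0.00, against -0.26 in FPKM as deposited, and changes are relative to that median. Read from the steps between low values, depth was 1.05 to 1.09 times higher in GXUR001 than in TE4-10 libraries, so neither strain was measured much more finely. Across all features, Pearson's r on log2(FPKM + 1) was 0.978 to 0.984 between GXUR001 libraries and 0.970 between the TE4-10 libraries, and TE4-10 replicate 1 correlated less with GXUR001 (0.9505 to 0.9526) than TE4-10 replicate 3 did (0.9675 to 0.9676). *POX_f08097*, the gene that the labels give as overexpressed, which the paper calls *PoxAmyR*, was at 90.6, 84.1 and 74.3 FPKM in GXUR001, against 62.8 and 66.7 FPKM in TE4-10 (a log2 difference of 0.62 ± 0.16 (SE), limma adjusted p = 0.049). No table at hand links *PoxCxrC* to a gene ID, and the deletion was therefore not checked.

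After rescaling, 25 of the 39 members were lower in GXUR001 and 14 higher, with a median log2 fold change of -0.34 (median SE 0.13), against 0.00 over all genes tested. By adjusted p under 0.05 in limma, 8 members were called higher and 10 lower, where 17.8% of all genes tested were called, 9.74% higher and 8.08% lower. Nothing is read from that count, because the list was picked on the same contrast. The rescaled values of the strains did not overlap in 38 members, 13 of them higher and 25 lower in GXUR001, and over all genes tested this held for 53.2% (26.7% higher and 26.5% lower). Higher in GXUR001 by any amount were 50.1% of all genes tested. In FPKM as deposited the signs of all 39 were the same, but the strains overlapped in 6, and the other members were higher in 8 and lower in 25, beside 59.5% of all genes tested without overlap (12.6% higher and 46.9% lower). There limma called 6 members higher and 24 lower, and of all genes tested 27.6%, with 4.8% higher and 22.8% lower. Without GXUR001 replicate 2 limma called none of the 39 members and 0.177% of all genes tested, and 22 members and 23.9% of all genes had an unadjusted p under 0.05. When GXUR001 replicate 1 was left out, 3 members were called higher and 3 lower (5.57% of all genes), and 4 and 3 when it was replicate 3 (5.71%). Without TE4-10 replicate 1, 7 were called higher and 3 lower (11.3% of all genes), and without TE4-10 replicate 3, 10 and 9 (19.1%). Each fit without a TE4-10 library kept only 1 library of that strain, so the residual spread came from the 3 GXUR001 libraries alone. The counts from those fits are therefore no test of robustness, and nothing is read from them. In bulk mycelium, fewer hyphae that transcribe a gene and less mRNA per hypha cannot be told apart.

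**Figure D1:**
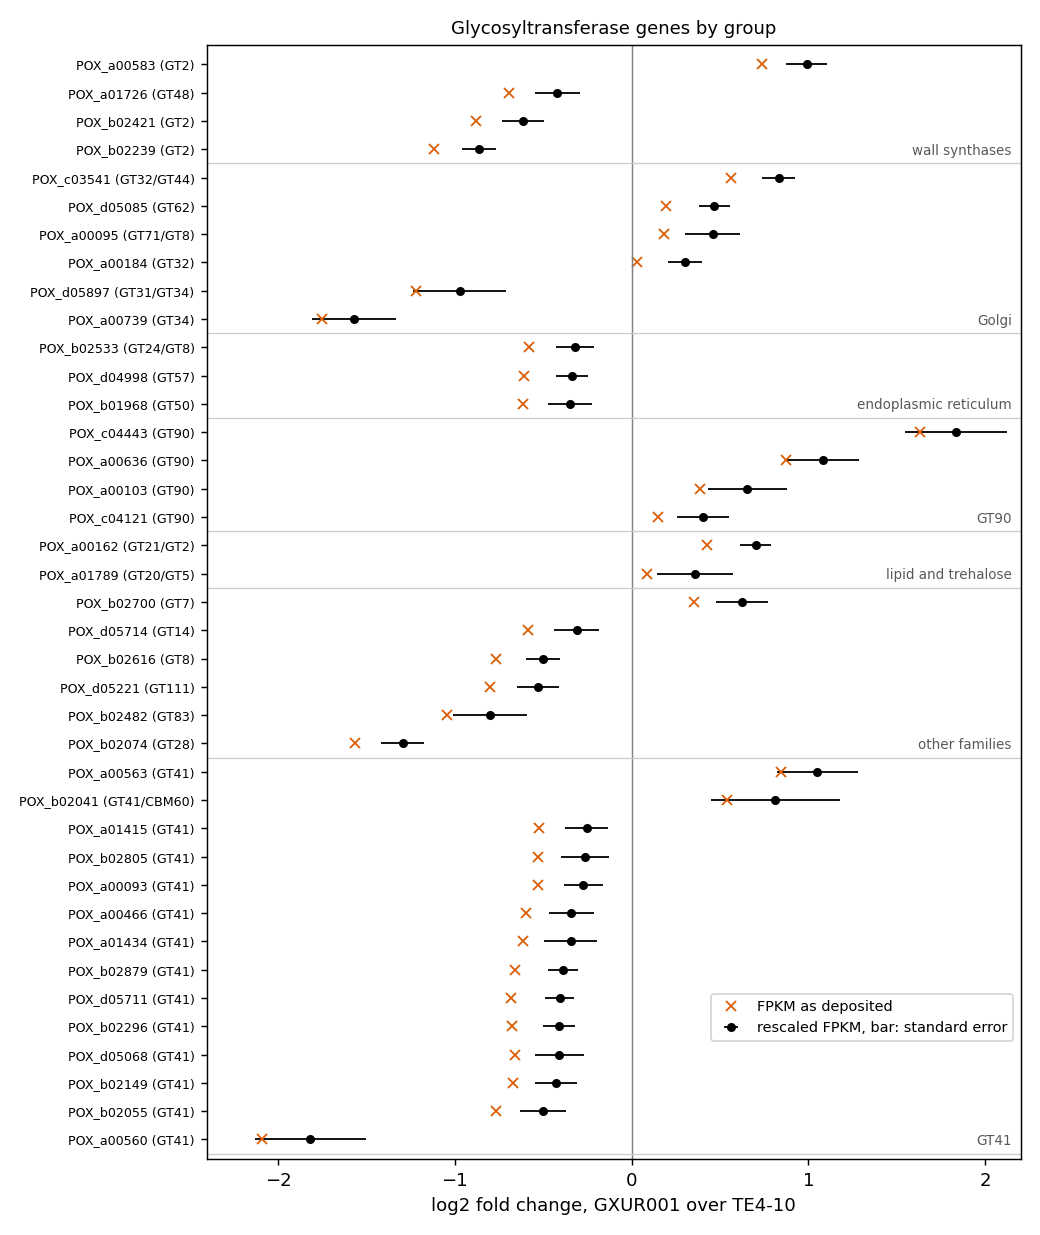
Log2 fold change (GXUR001 over TE4-10) of the 39 glycosyltransferase genes, in rows grouped by role and, within a group, ordered by size. Black points are values after rescaling with their SE, and crosses are values from FPKM as deposited, which lie to the left of the black points throughout while every gene keeps its sign.

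Chitin and 1,3-beta-glucan are the load-bearing polymers of the hyphal wall. Chitin synthases (GT2) polymerise N-acetylglucosamine, and filamentous fungi hold several classes of them. The GT48 enzyme is the catalytic subunit of 1,3-beta-glucan synthase, the target of the echinocandin antifungals. In the data, chitin synthase G was higher in GXUR001, while the other annotated chitin synthase gene, a further GT2 gene and the glucan synthase gene were lower.

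*POX_a00583*, annotated as chitin synthase G, a class III enzyme in *Aspergillus fumigatus*, had 12.8, 15.5 and 15.4 FPKM in GXUR001, against 8.24 and 8.37 FPKM in TE4-10. Every GXUR001 library lay above both TE4-10 libraries, and the means differed by 0.99 on the log2 scale (SE 0.11), or 1.99-fold on that scale. *POX_b02239*, annotated as chitin synthase with no class, had 8.93, 9.51 and 10.7 FPKM in GXUR001, against 22.7 and 21.7 FPKM in TE4-10. Here all GXUR001 libraries were below both TE4-10 libraries, with a log2 fold change of -0.86 (SE 0.10).

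The order of the chitin synthase genes by FPKM was thus opposite in the strains. Within a library, the ratio of *POX_a00583* to *POX_b02239*, which does not depend on the scaling between libraries, was 1.44, 1.63 and 1.45 in GXUR001, against 0.36 and 0.39 in TE4-10. The mean ratio was 1.51 ± 0.109 (SD, n = 3) in GXUR001 and 0.374 ± 0.0156 (SD, n = 2) in TE4-10. The sum of both genes differed less, at 24.3 ± 2.24 FPKM (SD, n = 3) in GXUR001 and 30.5 ± 0.587 FPKM (SD, n = 2) in TE4-10.

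The glucan synthase gene *POX_a01726* was the most abundant member of these polymer families, at 136, 132 and 125 FPKM in GXUR001, against 199.55 and 225 FPKM in TE4-10. All GXUR001 values were below the TE4-10 values, with a log2 fold change of -0.42 (SE 0.13) and one of -0.69 in FPKM as deposited. *POX_b02421*, a GT2 gene whose product is hypothetical and which is not named as a chitin synthase, had 24.1, 26.3 and 25.5 FPKM in GXUR001, against 53.5 and 42.0 FPKM in TE4-10. The strains did not overlap, at a log2 fold change of -0.61 (SE 0.12). Summed over these 4 genes as deposited, GXUR001 had 180.2 ± 3.44 FPKM (SD, n = 3) and TE4-10 had 290.4 ± 9.07 FPKM (SD, n = 2). All genes tested had a median log2 fold change of -0.26 on those values. *POX_a00162*, which carries GT2 as its second entry, is not in this sum and is described below. Relative to the glucan synthase gene, the chitin synthase G gene was at a ratio of 0.112 ± 0.0153 (SD, n = 3) in GXUR001 and 0.0393 ± 0.00285 (SD, n = 2) in TE4-10.

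**Figure D2:**
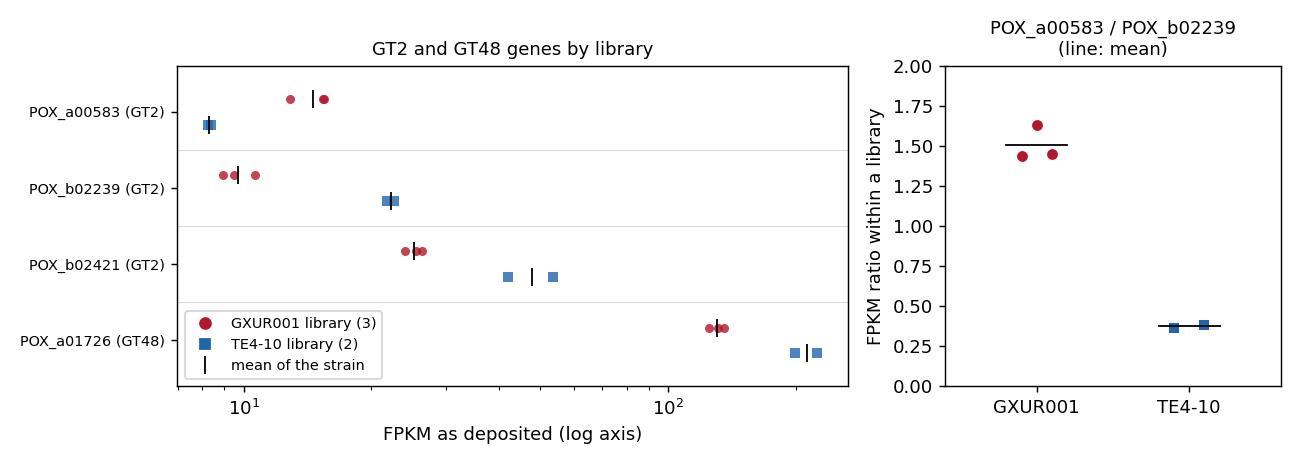
Left, FPKM as deposited (log axis) of the GT2 and GT48 genes, with points for the 3 GXUR001 libraries, squares for the 2 TE4-10 libraries and a bar at each mean. Right, the ratio of *POX_a00583* to *POX_b02239* within each library, which is above 1 in all GXUR001 libraries and below 0.4 in both TE4-10 libraries.

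Mannan and galactose side chains are added in the Golgi apparatus. Of the 6 members in families that act there in yeasts, 4 genes annotated as or related to mannosyltransferases were higher in GXUR001 after rescaling and 2 genes with galactosyltransferase annotation were lower. Of the mannosyltransferase genes, only *POX_c03541* and *POX_d05085* also stayed apart between the strains in FPKM as deposited. GXUR001 was higher without overlap in 26.7% of all genes tested after rescaling and in 12.6% as deposited.

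*POX_c03541*, annotated as an alpha-1,6-mannosyltransferase of GT32, the family that starts the outer mannan chain in *Saccharomyces cerevisiae*, had 39.3, 38.0 and 42.2 FPKM in GXUR001, against 28.4 and 24.9 FPKM in TE4-10. The GXUR001 libraries were all higher, with a log2 fold change of 0.83 (SE 0.09). The other GT32 gene, *POX_a00184*, had 31.6, 32.5 and 32.5 FPKM in GXUR001, against 30.5 and 32.4 FPKM in TE4-10. These values overlap as deposited, and its log2 fold change was 0.30 (SE 0.10) after rescaling and 0.03 before it. The ratio of *POX_c03541* to *POX_a00184* within a library was 1.24 ± 0.0661 (SD, n = 3) in GXUR001 and 0.85 ± 0.116 (SD, n = 2) in TE4-10, a quantity that the scaling cannot change.

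*POX_d05085*, of GT62, whose members form the mannan polymerase complexes of *S. cerevisiae*, had 53.9, 54.5 and 57.4 FPKM in GXUR001, against 47.2 and 48.9 FPKM in TE4-10. All GXUR001 values were higher, and the means differed by 0.47 on the log2 scale (SE 0.09). *POX_a00095*, an alpha-mannosyltransferase gene of GT71, the family of side-chain mannosyltransferases in yeast, had 92.5, 89.7 and 90.3 FPKM in GXUR001, against 95.2 and 66.7 FPKM in TE4-10. TE4-10 replicate 1 lay above every GXUR001 library as deposited, and the log2 fold change was 0.46 (SE 0.16) after rescaling and 0.19 before it. Without TE4-10 replicate 3 the rescaled value was 0.23.

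The members with galactosyltransferase annotation lay far lower in FPKM. *POX_a00739*, of the GMA12/MNN10 type (GT34), named for galactosyl- and mannosyltransferases of fission and budding yeast, had 0.66, 0.84 and 0.68 FPKM in GXUR001, against 5.39 and 4.29 FPKM in TE4-10. It was the least abundant member in GXUR001, and all GXUR001 values were lower, at a log2 fold change of -1.57 (SE 0.24) that the pseudocount understates. *POX_d05897*, annotated as a beta-1,3-galactosyltransferase (GT31), had 6.23, 5.51 and 4.71 FPKM in GXUR001, against 18.5 and 10.6 FPKM in TE4-10. Its log2 fold change was -0.97 (SE 0.26), but the TE4-10 libraries differed 1.75-fold from each other, and without TE4-10 replicate 1 it was -0.63.

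The endoplasmic reticulum hosts the assembly of the dolichol-linked glycan, the check on folding that re-adds glucose to it, and the glycosylphosphatidylinositol (GPI) anchor that carries many wall proteins to the cell surface. All 3 members with these roles were lower in GXUR001, by similar amounts. *POX_b01968*, of GT50, the mannosyltransferase that adds the first mannose of the GPI anchor, had 21.5, 23.8 and 20.4 FPKM in GXUR001, against 34.0 and 34.0 FPKM in TE4-10. *POX_d04998*, of GT57, which glucosylates the dolichol-linked glycan, had 28.9, 30.2 and 35.8 FPKM in GXUR001, against 48.6 and 48.3 FPKM in TE4-10. *POX_b02533*, of GT24, the folding sensor that glucosylates misfolded glycoproteins, had 14.4, 15.1 and 17.8 FPKM in GXUR001, against 26.2 and 22.0 FPKM in TE4-10.

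In none of these genes did the strains overlap under either scaling. Over all genes tested, GXUR001 was lower without overlap in 26.5% after rescaling and in 46.9% as deposited. At adjusted p under 0.05, limma called none of the 3 endoplasmic reticulum genes. Their log2 fold changes were -0.35 (SE 0.13) for *POX_b01968*, -0.34 (SE 0.09) for *POX_d04998* and -0.32 (SE 0.11) for *POX_b02533*. They lay between -0.58 and -0.61 in FPKM as deposited, where the median of all genes tested was -0.26. Relative to them, the 4 Golgi genes related to mannosyltransferases, which were the 4 Golgi members higher after rescaling, were higher in GXUR001. The sum over *POX_a00095*, *POX_a00184*, *POX_c03541* and *POX_d05085*, divided by the sum over the endoplasmic reticulum genes, was 3.16 ± 0.177 (SD, n = 3) in GXUR001 and 1.75 ± 0.137 (SD, n = 2) in TE4-10. That ratio was 3.35, 3.11 and 3.01 in the GXUR001 libraries, against 1.85 and 1.66 in the TE4-10 libraries. It leaves out the 2 Golgi members that were lower. Over all 6 Golgi members the sum was 224.3 ± 3.40 FPKM (SD, n = 3) in GXUR001 and 206.4 ± 26.4 FPKM (SD, n = 2) in TE4-10. Over the endoplasmic reticulum genes it was 69.3 ± 4.55 FPKM (SD, n = 3) and 106.5 ± 3.10 FPKM (SD, n = 2).

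GT90 is known from *Cryptococcus*, where members of the family add xylose to the polysaccharides of the capsule and to glycolipids. Whether the *P. oxalicum* genes act on such substrates is not given by the annotation. The 4 GT90 members were all higher in GXUR001 after rescaling, with a median log2 fold change of 0.87. In FPKM as deposited, 2 of them did not overlap between the strains, where 12.6% of all genes tested were higher without overlap.

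*POX_c04443* had 9.62, 7.64 and 7.02 FPKM in GXUR001, against 1.29 and 2.71 FPKM in TE4-10. Its log2 fold change of 1.83 (SE 0.29), or 3.56-fold on that scale, was the highest of all members. The pseudocount understates the change, with rescaled means of 8.80 FPKM in GXUR001 and 1.80 FPKM in TE4-10. TE4-10 replicate 1 was at 0.476 times TE4-10 replicate 3. The gene model is 390 bp long in the reference gene table, the shortest of the members, and its product is hypothetical. *POX_a00636*, annotated as a beta-1,2-xylosyltransferase, had 5.32, 5.00 and 5.69 FPKM in GXUR001, against 1.96 and 3.03 FPKM in TE4-10. The strains were apart in both genes, with a log2 fold change of 1.08 (SE 0.20) for *POX_a00636*.

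The more abundant *POX_a00103* had 40.5, 50.2 and 60.1 FPKM in GXUR001, against 30.6 and 46.7 FPKM in TE4-10. As deposited, TE4-10 replicate 3 lay within the GXUR001 range, and the fitted difference was 0.65 on the log2 scale (SE 0.22) after rescaling, 0.32 without TE4-10 replicate 1 and 0.98 without TE4-10 replicate 3. *POX_c04121*, annotated with the same xylosyltransferase name as *POX_a00636*, had 12.5, 11.1 and 11.7 FPKM in GXUR001, against 11.8 and 9.26 FPKM in TE4-10. These values overlap as well, with a log2 fold change of 0.41 (SE 0.15) after rescaling and 0.15 before it. The summed FPKM of the GT2 and GT48 genes was lower in GXUR001. Relative to that sum, the GT90 sum was at a ratio of 0.419 ± 0.0542 (SD, n = 3) in GXUR001 and 0.184 ± 0.0333 (SD, n = 2) in TE4-10. All 4 GT90 genes were higher and 3 of the 4 GT2 and GT48 genes lower, so the direction of this ratio follows from the genes picked. In GXUR001, *POX_a00103* made up 50.3 of 75.5 FPKM of the first sum on average, and *POX_a01726* 130.6 of 180.2 FPKM of the second.

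**Figure D3:**
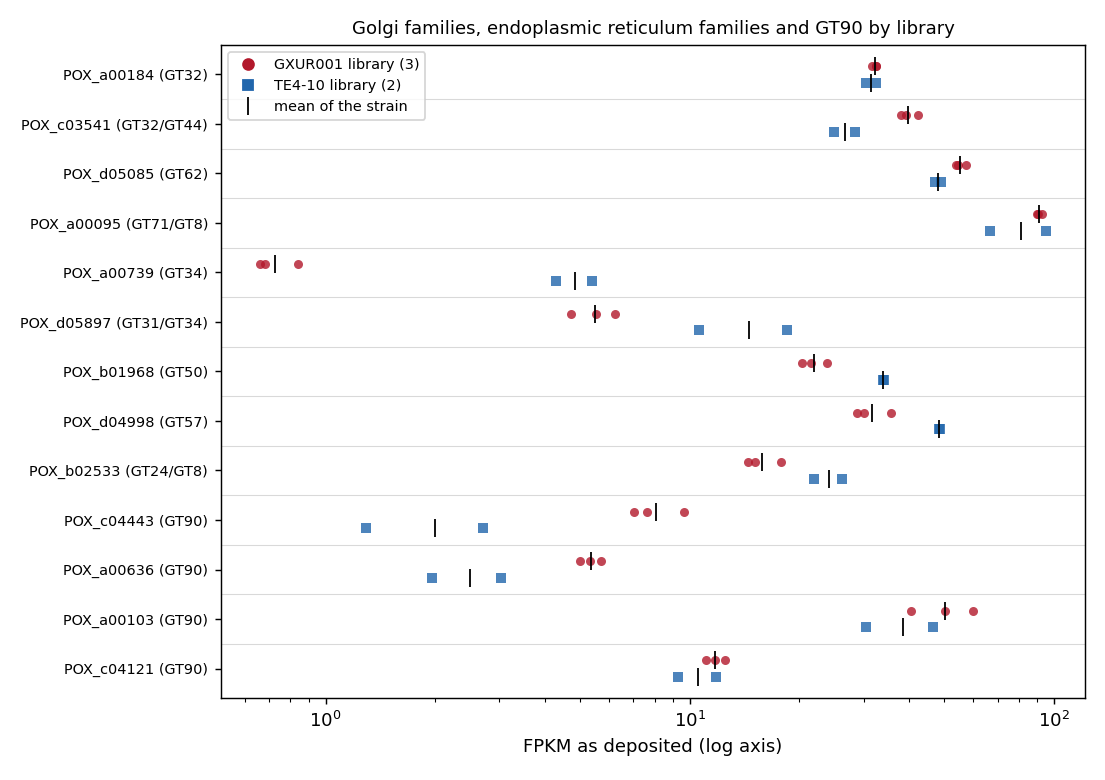
FPKM as deposited (log axis) of the Golgi families (top 6 rows), the endoplasmic reticulum families (next 3) and GT90 (bottom 4), with points for GXUR001 libraries, squares for TE4-10 libraries and a bar at each mean. The strains are apart in the endoplasmic reticulum rows, with GXUR001 lower, and in *POX_c04443* and *POX_a00636*, with GXUR001 higher, and they overlap in *POX_a00184*, *POX_a00095*, *POX_a00103* and *POX_c04121*.

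A pair of members makes small molecules or lipids. *POX_a00162*, annotated as the ceramide beta-glucosyltransferase that makes glucosylceramide, a sphingolipid of fungal membranes, had 85.6, 92.3 and 106 FPKM in GXUR001, against 69.5 and 69.9 FPKM in TE4-10. All GXUR001 libraries were higher under both scalings, with a log2 fold change of 0.70 (SE 0.09). *POX_a01789*, annotated as trehalose-phosphate synthase, the first enzyme of trehalose synthesis, had 131, 140.1 and 148 FPKM in GXUR001, against 104 and 165 FPKM in TE4-10. It was the only member whose strains overlapped after rescaling, its log2 fold change was 0.36 (SE 0.21), and leaving out TE4-10 replicate 1 brought it to -0.0044 and leaving out TE4-10 replicate 3 to 0.72.

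By first GT entry, families GT7, GT8, GT14, GT28, GT83 and GT111 are represented by 1 gene each, and 5 of these 6 genes were lower in GXUR001. GT8 is also the second entry of *POX_a00095* and *POX_b02533*. *POX_b02074* (GT28, a family with bacterial peptidoglycan and plant galactolipid enzymes) had 27.5, 26.2 and 34.9 FPKM in GXUR001, against 95.1 and 82.5 FPKM in TE4-10. Its log2 fold change of -1.29 (SE 0.12) was the third lowest of the members, and its product is hypothetical. *POX_b02482* (GT83, the family of a bacterial arabinose transferase) had 3.71, 4.37 and 6.01 FPKM in GXUR001, against 12.7 and 8.78 FPKM in TE4-10, a log2 fold change of -0.80 (SE 0.21).

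*POX_d05221* (GT111), whose product is hypothetical, was abundant, at 158, 146 and 148 FPKM in GXUR001, against 284 and 243 FPKM in TE4-10. The GXUR001 values were all lower, with a log2 fold change of -0.53 (SE 0.12). *POX_b02616* (GT8), annotated as galactinol synthase, an enzyme known from plants, had 14.8, 16.1 and 18.6 FPKM in GXUR001, against 30.1 and 27.3 FPKM in TE4-10, and a log2 fold change of -0.50 (SE 0.10). *POX_d05714* (GT14, a family of branching N-acetylglucosaminyltransferases in animals) had 95.5, 123 and 131 FPKM in GXUR001, against 167 and 181 FPKM in TE4-10, and a log2 fold change of -0.31 (SE 0.13).

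The exception was *POX_b02700* (GT7, a family of galactosyltransferases in animals), with 40.5, 42.2 and 47.2 FPKM in GXUR001, against 40.2 and 28.1 FPKM in TE4-10. The lowest GXUR001 value exceeded the higher TE4-10 value by less than 1 FPKM as deposited. A log2 fold change of 0.62 (SE 0.15) was fitted, and 0.40 without TE4-10 replicate 3.

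In GT41, 12 of the 14 members were lower in GXUR001, with no overlap of the strains in any of the 12 under either scaling, and 2 were higher. Over all genes tested, GXUR001 was lower without overlap in 26.5% after rescaling and in 46.9% as deposited. Limma called 4 GT41 members lower and 1 higher, and of all genes tested 8.08% and 9.74%. Nothing is read from these counts, as the members were picked on the same contrast. The median log2 fold change of the family was -0.37 (median SE 0.13). Summed over the family, GXUR001 had 814 ± 57.3 FPKM (SD, n = 3) and TE4-10 had 1275 ± 38.0 FPKM (SD, n = 2). In FPKM as deposited the median was -0.64, where that of all genes tested was -0.26.

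A single gene made up most of the difference in that sum. *POX_a00560* had 127 FPKM in GXUR001 replicate 1, 97.4 in replicate 2 and 72.1 in replicate 3, against 499 and 343 FPKM in TE4-10. It was the most abundant member in TE4-10, at the percentile 81.9 of annotated genes in GXUR001 and 95.2 in TE4-10. Its log2 fold change of -1.82 (SE 0.31), or 3.52-fold lower in GXUR001 on that scale, was the lowest of the members at the pseudocount of 1. It stayed between -2.06 and -1.56 with any 1 library left out. With a pseudocount of 0.1 the value of *POX_a00560* was -1.825, while that of *POX_a00739* was lower, at -2.317.

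*POX_a00563*, which lies on chromosome I with 2 genes between it and *POX_a00560* in the reference gene table, differed in the other direction, at 4.85, 5.28 and 4.30 FPKM in GXUR001, against 2.88 and 1.68 FPKM in TE4-10. The strains did not overlap, and GXUR001 was higher by 1.05 on the log2 scale (SE 0.23). The other GT41 gene that was higher in GXUR001, *POX_b02041*, which also carries a carbohydrate-binding module entry (CBM60), had 275 FPKM in replicate 1, 311 in replicate 2 and 387 in replicate 3, against 146 and 334 FPKM in TE4-10. This was the most abundant member in GXUR001, yet TE4-10 replicate 1 was at 0.436 times TE4-10 replicate 3, which lay among the GXUR001 values as deposited. Its log2 fold change of 0.81 (SE 0.36) was 0.18 once TE4-10 replicate 1 was left out and reached 1.43 when TE4-10 replicate 3 was left out.

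The clathrin heavy chain gene *POX_b02296* differed little between replicates, at 41.01, 42.1 and 41.8 FPKM in GXUR001, against 67.3 and 67.2 FPKM in TE4-10. GXUR001 was lower throughout, with -0.41 on the log2 scale (SE 0.09). *POX_b02055* had 15.9, 16.5 and 18.3 FPKM in GXUR001, against 33.9 and 25.4 FPKM in TE4-10, and a log2 fold change of -0.50 (SE 0.13).

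The remaining 9 genes (*POX_a00093*, *POX_a00466*, *POX_a01415*, *POX_a01434*, *POX_b02149*, *POX_b02805*, *POX_b02879*, *POX_d05068* and *POX_d05711*) all have hypothetical products and lay in a narrow range of log2 fold changes, from -0.43 to -0.25. Their mean levels ran from 5.70 to 164 FPKM in GXUR001 and from 9.66 to 263.9 FPKM in TE4-10. *POX_d05711* was the most abundant of them in both strains and *POX_b02149*, whose gene model of 8887 bp is the longest of the members, the least. Their median was -0.34 after rescaling and -0.61 in FPKM as deposited.

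**Figure D4:**
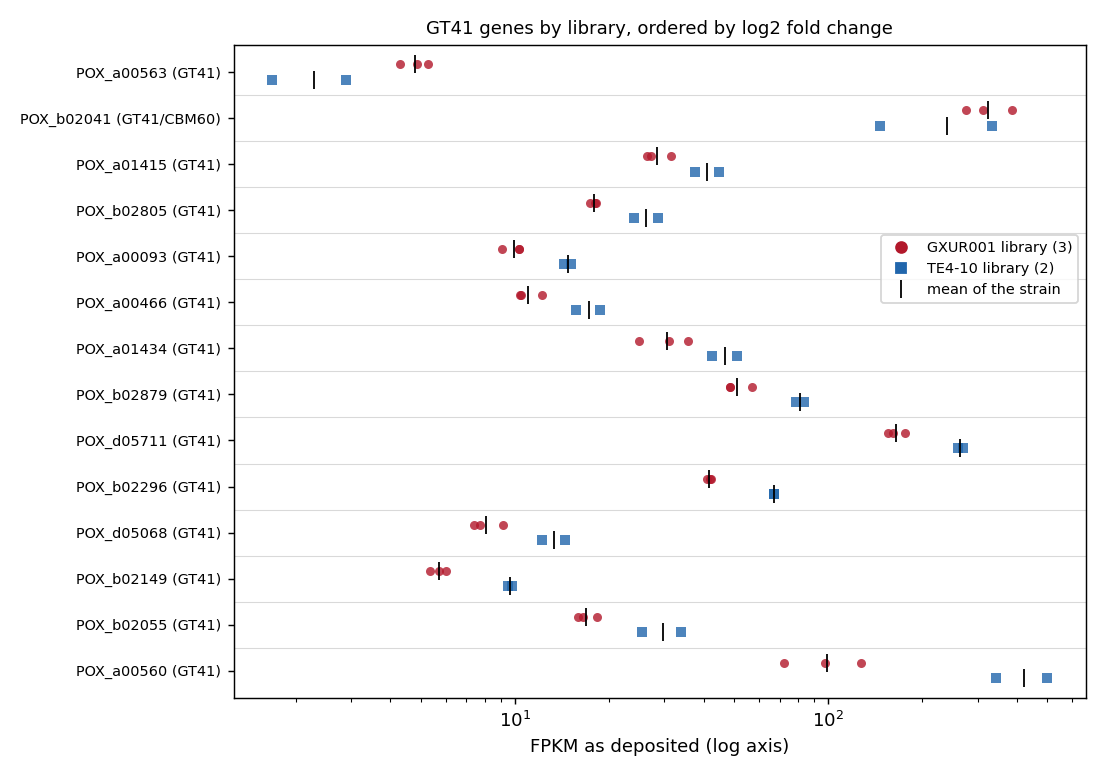
FPKM as deposited (log axis) of the 14 GT41 genes, ordered by log2 fold change, with points for GXUR001 libraries, squares for TE4-10 libraries and a bar at each mean. GXUR001 lies below TE4-10 in the lower 12 rows and above it in *POX_a00563*, and the strains overlap in *POX_b02041*.

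Members agreed better between GXUR001 libraries than between TE4-10 libraries, with a median SD on the log2 scale of 0.079 (n = 3) and 0.162 (n = 2), against 0.126 and 0.158 over all genes tested. The members were picked by a p-value on this contrast, which favours genes with a small spread, so nothing is read from these SDs. Leaving out each TE4-10 library in turn showed which members rest on 1 of them. Without TE4-10 replicate 1, 26 members were lower and the median log2 fold change was -0.38, and without TE4-10 replicate 3, 25 were lower and the median was -0.23. *POX_a01789* was the only member whose sign depended on this choice, and *POX_b02041* moved most. The chitin synthase gene *POX_b02239* moved least, with a log2 fold change of -0.86 in both cases, and *POX_a00583* stayed between 0.94 and 1.04 with any library left out.

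**Figure D5:**
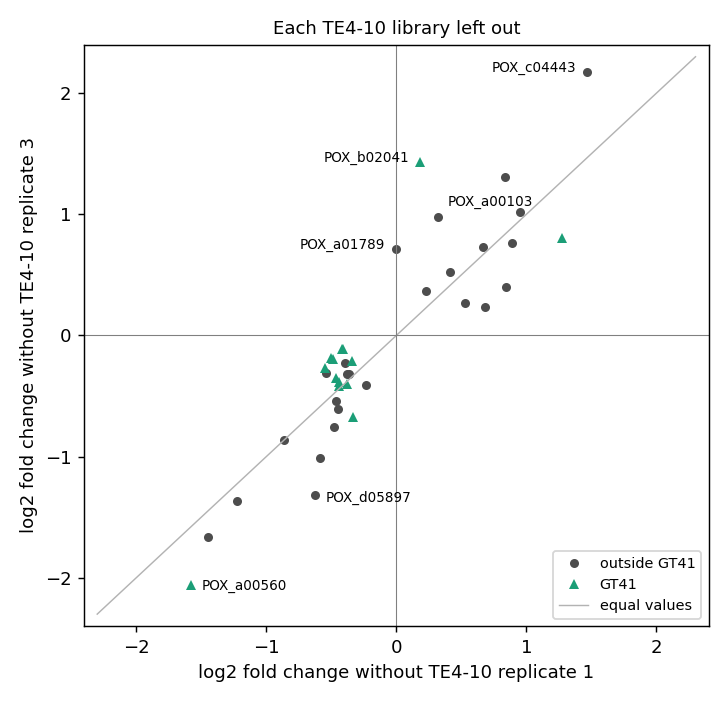
Log2 fold change of the 39 genes without TE4-10 replicate 1 (horizontal) and without TE4-10 replicate 3 (vertical), with circles for members outside GT41 and triangles for GT41. Points far from the line of equal values, such as *POX_b02041* (0.18 and 1.43) and *POX_a01789* (-0.0044 and 0.72), rest on 1 TE4-10 library.

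All 39 members were matched by ID in the reference gene table (assembly ASM172317v3), which was used for gene order and length. Apart from *POX_a00560* and *POX_a00563*, close pairs were *POX_a00093* and *POX_a00095* with 1 gene between them and *POX_d05711* and *POX_d05714* with 2. The first of these pairs had log2 fold changes of -0.27 and 0.46 and the second of -0.41 and -0.31, so 1 of these 3 pairs shared a direction. Of the 137 other tested genes within 2 positions of a member, 30 were called, 12 higher and 18 lower. That is 21.9%, against 17.8% of all genes tested, and of 141 pairs of a member and such a neighbour 78 (55.3%) had the same sign.

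Wall polymers are also cut and cross-linked, and protein glycans trimmed, by glycoside hydrolases, and the donor sugars come from a short pathway in the cytosol. Genes of these roles were taken from the same list of the study by family (GH16, GH17, GH18, GH47, GH72, GH76, GH92 and GH125) and by product name, 16 in all, and are likewise a description. With rescaled values, GXUR001 was higher in 8 genes and lower in the other 8, and limma called 2 in each direction. That is 25.0% of the list, against 17.8% of all genes tested (9.74% higher and 8.08% lower). Nothing is read from that count, because the list was picked on the same contrast. The sugar donor genes lay on the lower side, and limma called neither of them at adjusted p under 0.05. *POX_b02038*, annotated as the uridylyltransferase that makes UDP-glucose, had 220.7 ± 4.31 FPKM (SD, n = 3) in GXUR001 and 315.5 ± 8.97 FPKM (SD, n = 2) in TE4-10, a log2 fold change of -0.24 (SE 0.09). *POX_b03109*, annotated as a phosphohexomutase, a class of enzymes that move phosphate on a sugar, had 219.8 ± 20.4 FPKM (SD, n = 3) in GXUR001 and 339 ± 20.5 FPKM (SD, n = 2) in TE4-10, or -0.35 on the log2 scale (SE 0.10).

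The largest differences in this list were in glycan-trimming and glucan-modifying families. *POX_c04031*, annotated as an alpha-mannosidase (GH92), had 3.27 ± 0.767 FPKM (SD, n = 3) in GXUR001 and 12.2 ± 1.34 FPKM (SD, n = 2) in TE4-10, a log2 fold change of -1.40 (SE 0.19). *POX_a00742*, an alpha-mannosidase gene of GH47, the family that trims mannose in the endoplasmic reticulum and Golgi, had 282 ± 13.1 FPKM (SD, n = 3) in GXUR001 and 558 ± 153.6 FPKM (SD, n = 2) in TE4-10, or -0.68 on the log2 scale (SE 0.16). On the higher side, *POX_d05269* (GH16, a family with wall glucan cross-linking enzymes) had 173 ± 24.4 FPKM (SD, n = 3) in GXUR001 and 111.5 ± 44.9 FPKM (SD, n = 2) in TE4-10, or 0.95 on the log2 scale (SE 0.27), and 0.50 without TE4-10 replicate 1. Limma did not call *POX_d05269* (adjusted p = 0.064). *POX_a01724*, annotated as an exo-beta-1,3-glucanase (GH17), had 7.34 ± 0.896 FPKM (SD, n = 3) in GXUR001 and 4.70 ± 0.622 FPKM (SD, n = 2) in TE4-10, or 0.78 on the log2 scale (SE 0.14). The median of all 16 was 0.09 after rescaling and -0.18 in FPKM as deposited, so its sign depended on the scaling.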

How the data were processed

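Poly(A) RNA-seq data from mycelium covered 3 libraries of GXUR001 and 2 of TE4-10, which the paper calls biological replicates. Each deposited file held FPKM of a single library, computed by the authors, with 9822 annotated genes and 1337 rows outside the annotation. The submitters' processing notes name bcl2fastq and HISAT2, and reads were matched to the genome of strain HP7-1. The counting tool, strand handling and annotation version are not given in the sources used here, and reads shared by similar or overlapping genes could have been split. Since FPKM is not a count, no count model was fitted.

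Libraries were divided by their median ratio to the geometric mean (factors 0.875, 0.917 and 0.991 in GXUR001, 1.145 and 1.099 in TE4-10). Genes whose FPKM averaged 1 or more were tested on log2(FPKM + 1) with limma 3.58.1 in R 4.3.3 (eBayes with a trend, 3 residual degrees of freedom), with Benjamini-Hochberg adjustment and a threshold of 0.05. All members passed the filter. Relative depth was read from the steps of low FPKM in 228 to 337 genes per pair of libraries. An exact permutation test of 3 against 2 libraries cannot reach 0.05 and was not used. The script was tested on simulated data. Figures used matplotlib 3.10.9.

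Members, gene groups and lists were chosen with earlier results of these data known. Every member outside GT41 is given with its values, and of GT41 the clathrin gene and the 2 largest changes each way, while the other 9 GT41 genes are listed by ID and given as ranges. Of the list of hydrolase and sugar donor genes, the donor genes and the 2 largest changes each way are named. A list of other pathway genes by product name or protein similarity was planned but not made, as the tables used here give neither.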

Additional observations from a re-analysis of the deposited data

How the results depend on the processing

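Without rescaling, 463 genes were called higher and 2198 lower (17.4% higher, against 54.7%), from 939 and 779 after it, and with upper quartile scaling 783 and 1076 (42.1% higher). For the 39 members, FPKM as deposited gave 24 called lower and a median of -0.598, and upper quartile scaling gave 16 called lower. A mean FPKM of at least 10, which 32 members passed, gave 5 called higher. At an unadjusted p under 0.05, 1815 genes were higher and 1621 lower, and 20 members were lower. With the replicate number as a block, 0 genes were called in each direction, 0 members and 0 genes of the hydrolase and donor list included (2477 genes and 25 members had an unadjusted p under 0.05). The strains share only 2 replicate numbers and nothing in the labels ties them, so the numbers were not taken as pairs. With 1 library left out, 16 to 1069 genes were called higher and 1 to 767 lower, and among members 0 to 10 higher and 0 to 9 lower. For the hydrolase and donor list these counts were 0 to 3 and 0 to 3. The upper ends of these ranges came from the fit without TE4-10 replicate 3. That fit kept 1 TE4-10 library, so the spread within TE4-10 was not measured and nothing is read from its counts. In the hydrolase and donor list, FPKM as deposited gave 0 called higher (4.8% of all genes tested), 7 lower (22.8%) and a median of -0.177. Upper quartile scaling gave 4 lower (1076 of 9636 genes tested). No filter gave 1 lower (689 of 10492 genes) and eBayes without a trend 1 lower (637 of 9636). A mean FPKM of at least 10 gave 1 higher (918 of 7153 genes). Unadjusted p gave 7 higher and 6 lower (1815 and 1621 of 9636 genes). No member changed sign under any alternative but *POX_a01789*, without TE4-10 replicate 1. The cause of these changes was not tested.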
